A study of Saccharomyces cerevisiae with 136 samples.

Results

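The fast-dividing mother cells of budding yeast (Saccharomyces cerevisiae) were compared between 36 h and 16 h after birth, with the RNA of each cell sequenced as its own library. The 36-h/F subgroup held 27 of the 45 cells with values at 36 h and the 16-h/F subgroup held 26 of the 43 at 16 h, together 53 of the 125 cells with values. An F cell is one that had made more divisions than the mean of its age group, which the supplement of the study records cell by cell. The 36-h/F cells had made 18 to 22 generations and the 16-h/F cells 9 to 12, so the division counts did not overlap. All cells were wild type, began as newborn daughters on solid agar with SD, a defined glucose medium, and were followed by manual microdissection until they were isolated. The strain field of the labels and the methods of the study give BY4742, a haploid of the alpha mating type, whereas the sample titles read BY4741. Cells were lysed when they were isolated, so the 16-h/F and 36-h/F cells are different cells, and a cell that was fast-dividing at 16 h is not known to have been so at 36 h. The labels name no culture, so each subgroup counted as 1 sample, the spread given is the SD among cells, and no p-value was computed. The 2 ages were also isolated at different times, and age cannot be told apart from anything else that differed between those isolations.

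Replicative ageing in yeast is the loss of division capacity of a mother cell that buds repeatedly while its daughters start anew. Yeast couples growth to the transcription of ribosomal protein genes and of the factors that assemble ribosomes, which glucose and nitrogen promote through the protein kinase A and TOR pathways. When these pathways are weakened or the cell is stressed, the transcription factors Msn2 and Msn4 enter the nucleus and bind the stress response element, and genes for trehalose, glycogen, catalase and small heat shock proteins are transcribed while ribosome genes are repressed.

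Reads on genes ran from 95476 to 833501 per 16-h/F cell (median 277170) and from 49648 to 753762 per 36-h/F cell (median 325464). Of all values in these cells, 58.9% were 0, so a gene at 0 was not detected and may still have been expressed. In 6 of the 36-h/F cells 1 read was worth more normalized counts (11.8 at most) than in every 16-h/F cell (1.63 at most), and these cells had 49648 to 160767 reads. Results that rest on them are given with and without them. A second feature of the libraries also went with the results. The number in the name of a 36-h/F cell, from 1 to 48, had a Spearman rho of 0.88 with the general stress list described below (27 cells), whereas it was -0.19 over the 26 16-h/F cells. What the number stands for is not given in the sources used here, its part in the results was not tested, and values are given below for the 10 cells numbered up to 24 and the 17 numbered above 24.

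Stress and reserve carbohydrate genes were higher and genes of ribosome synthesis lower in 36-h/F than in 16-h/F cells. Levels are log2 normalized counts, that is the log2 of 1 plus the reads over the cell's size factor, and a difference is the mean over the 36-h/F cells minus the mean over the 16-h/F cells. A gene was counted as higher or lower from a difference of 2, a factor of 4 where a gene is well above 0. Among the 2166 genes with an average level of at least 2, 155 were higher (7.16%) and 46 lower (2.12%), and over all 5979 genes with a read in these cells 176 were higher (2.94%) and 59 lower (0.987%). Members of gene lists were counted without this limit on the level. Unless stated otherwise, the latter shares are the ones to set beside such counts. The difference was above the SD among cells of both subgroups for 53 of the 155 and 6 of the 46. The median difference over the 2166 genes was 0.21. It was -0.068 with every cell scaled to the same sum of reads and -0.33 with cells scaled by their spike-in RNA, and the counts of lower genes were then 116 and 188, against 141 and 91 higher genes. Lower genes thus made up a larger share of the counted genes under both of these scalings, and a difference near 0 changes its sign with the scaling.

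The higher and lower genes also differed in their promoters, which played no part in how they were chosen. The stress response element, AGGGG on either strand (CCCCT), was found within 250 bases before to 50 after the gene start in 89 of 151 promoters of higher genes (58.9%) and 5 of 46 of lower genes (10.9%), against 22% of all 5684 promoters and 25.7% of those of the genes that passed the filter on the level. The PAC element, GATGAG on either strand (CTCATC) and common before genes of ribosome synthesis, was found in 25 promoters of lower genes (54.3%) and 25 of higher genes (16.6%), against 19.8% of all promoters. The Yap1 element TTACTAA, searched on both strands and bound by the regulator of the oxidative stress response, was in 9.27% of promoters of higher genes and 7.69% of all. A PAC element ends in the letters AG with which a stress response element begins, so the pair can overlap. A match describes the letters and is no evidence of binding. The promoters of the genes with the highest differences, CTT1 and NQM1, are shown with their stress response elements in capitals, and those of the ribosome assembly factors with the lowest differences, NOP1 and MAK21, with their PAC element in capitals. Each runs 5′ to 3′ on the strand of the gene from the R64 reference of RefSeq, chrVII:654384-654683 (plus strand), chrVII:581387-581686 (minus), chrIV:427114-427413 (plus) and chrIV:570399-570698 (plus), and the gene starts at base 251.
CTT1: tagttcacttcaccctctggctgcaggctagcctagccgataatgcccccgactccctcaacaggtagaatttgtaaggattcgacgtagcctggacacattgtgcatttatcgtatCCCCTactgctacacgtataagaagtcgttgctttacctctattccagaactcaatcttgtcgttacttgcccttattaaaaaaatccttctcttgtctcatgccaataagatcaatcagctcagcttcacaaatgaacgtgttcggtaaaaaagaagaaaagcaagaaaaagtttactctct
NQM1: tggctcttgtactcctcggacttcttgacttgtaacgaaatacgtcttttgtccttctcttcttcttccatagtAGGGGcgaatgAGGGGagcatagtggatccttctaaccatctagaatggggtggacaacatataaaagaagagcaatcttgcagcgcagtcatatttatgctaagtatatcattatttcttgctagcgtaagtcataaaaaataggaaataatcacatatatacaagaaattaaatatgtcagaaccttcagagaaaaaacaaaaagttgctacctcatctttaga
NOP1: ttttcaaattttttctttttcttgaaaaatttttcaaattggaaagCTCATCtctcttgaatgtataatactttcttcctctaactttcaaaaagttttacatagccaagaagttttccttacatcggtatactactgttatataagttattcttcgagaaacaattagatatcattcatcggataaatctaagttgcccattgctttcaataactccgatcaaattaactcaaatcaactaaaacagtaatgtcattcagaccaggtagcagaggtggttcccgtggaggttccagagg
MAK21: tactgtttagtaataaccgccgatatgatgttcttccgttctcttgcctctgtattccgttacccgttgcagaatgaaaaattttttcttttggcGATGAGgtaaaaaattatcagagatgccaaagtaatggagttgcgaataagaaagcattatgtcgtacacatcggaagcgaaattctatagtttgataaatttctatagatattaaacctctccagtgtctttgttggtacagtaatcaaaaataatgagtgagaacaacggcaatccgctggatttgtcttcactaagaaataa
Counted from the gene start, the element of CTT1 begins at -133 and those of NQM1 at -176 and -165, and the PAC elements begin at -204 in NOP1 and -155 in MAK21.

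CTT1 (YGR088W, chromosome VII), the cytosolic catalase, had the highest difference of all genes that passed the filter. Its lowest, median and highest levels were 0.00, 0.00 and 7.99 in 16-h/F cells and 0.00, 8.46 and 13.05 in 36-h/F cells, a difference of 5.68. It had reads in 7 of 26 16-h/F cells (26.9%, exact 95% interval 11.6 to 47.8%) and 22 of 27 36-h/F cells (81.5%, 61.9 to 93.7%), and these intervals cover counting error only. The ranges overlapped, since 5 of the 36-h/F cells had no read of it, and 16 were above every 16-h/F cell. STL1, the glycerol and proton symporter of the plasma membrane, went from 0.00, 0.00 and 3.77 to 0.00, 6.20 and 11.75, a difference of 5.03, with reads in 2 of 26 and 19 of 27 cells. HSP26, a small heat shock protein that holds unfolded proteins, went from 0.00, 0.00 and 6.02 to 0.00, 6.87 and 12.23, with reads in 4 and 21 cells and a difference of 4.59. In all of these genes most 16-h/F cells were at 0 and most 36-h/F cells above it. HSP30, a heat shock protein of the plasma membrane on the list of the proton pump family, had reads in 0 of 26 and 7 of 27 cells. EGO4 differed by 4.41 and ALD3, a cytosolic aldehyde dehydrogenase of the stress response, by 4.37, but 40.4% of the 50-base words of ALD3 occur elsewhere in the genome, so that reads may be split with its neighbour and copy ALD2 (1.99).

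**Figure D1:**
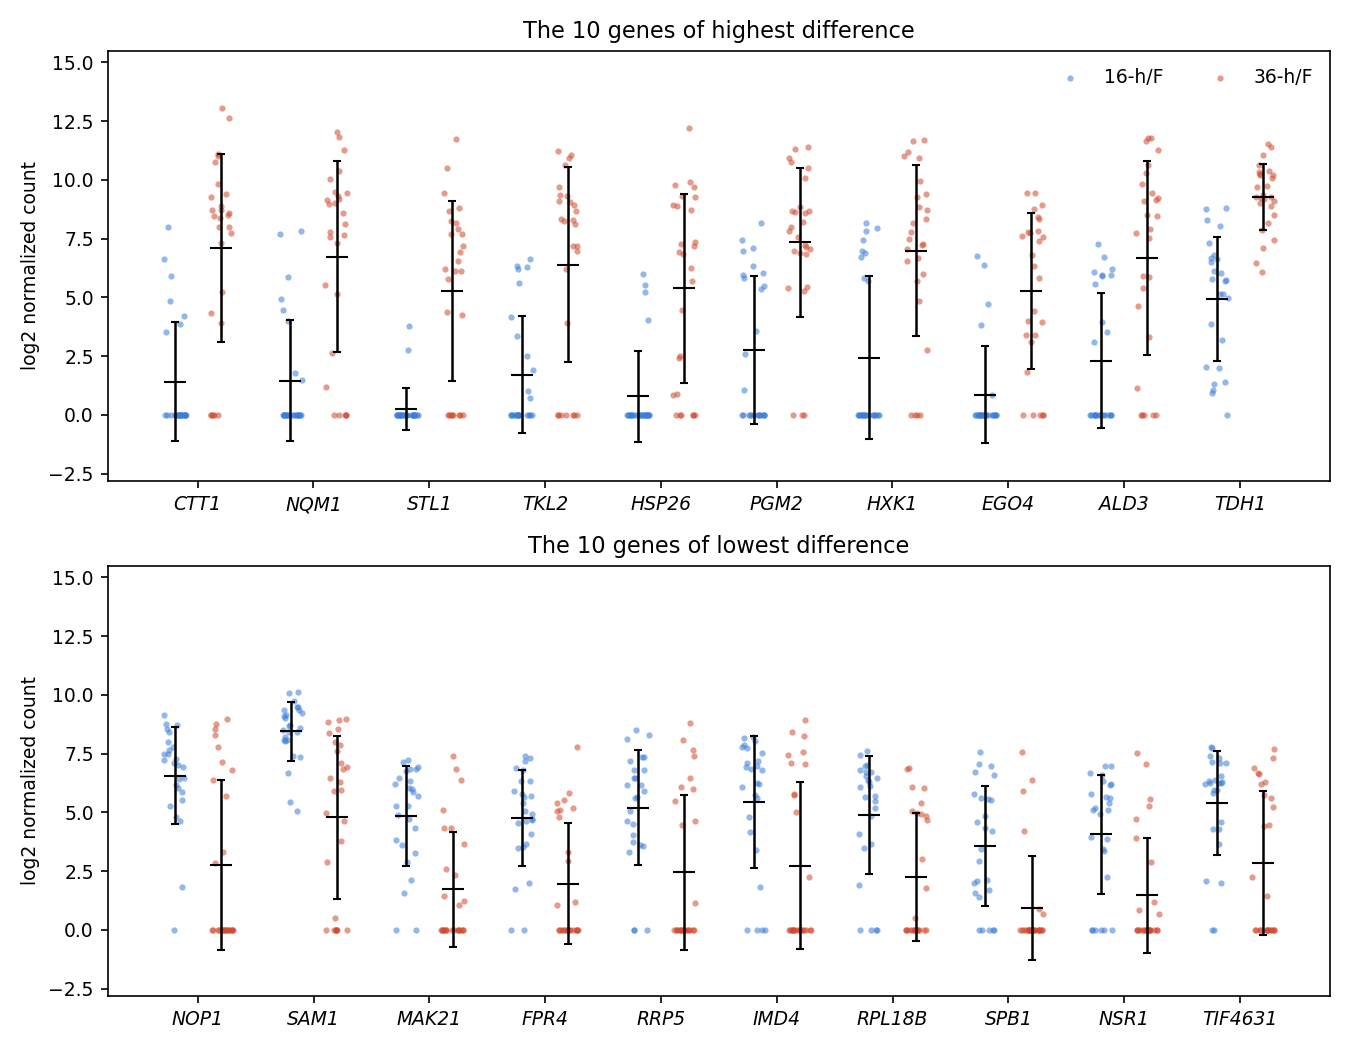
Log2 normalized count (vertical axis) of the 10 genes with the highest differences (upper panel) and the 10 with the lowest (lower panel) in each 16-h/F cell (blue, 26) and 36-h/F cell (red, 27). Bars are the mean and SD among cells. For CTT1 most blue points lie at 0 and most red points above 4, with 5 red points at 0, and for NOP1 the reverse, with 16 of the red points at 0.

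The list of 44 Msn2/4-type general stress genes, all in the table, had 28 higher and 0 lower members (2.94% of all genes were higher), and their median difference was 2.33. Their mean level was 1.74 ± 0.80 (SD, 26 cells) in 16-h/F and 4.21 ± 2.09 (SD, 27 cells) in 36-h/F cells. The lowest, median and highest levels were 0.32, 1.62 and 3.49 at 16 h and 1.33, 4.30 and 7.88 at 36 h, so 17 of the 27 36-h/F cells were above every 16-h/F cell and the other 10 lay within the 16-h/F range. The probability that a random 36-h/F cell was above a random 16-h/F cell was 0.86. The stress response element was in 24 of these 44 promoters. Among the list's other members, DCS2 (4.28), MSC1 (4.20), GAD1, the glutamate decarboxylase (4.12), and HBT1 (3.93) were higher, whereas the lowest were YNL134C (-0.25) and SPG4 (-0.056). HSP12, a small protein that stabilizes the plasma membrane, had a difference of 2.84. For reference, the same list was at 0.83 ± 0.23 (SD, 37 cells) in 2-h cells.

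Reserve carbohydrate genes had the highest difference of the 40 lists after general stress. The 22 genes of trehalose and glycogen went from 1.97 ± 0.82 to 3.89 ± 1.45, with 7 higher and 0 lower (2.94% of all genes were higher), and 14 of the 36-h/F cells above every 16-h/F cell. TPS1, the synthase, had lowest, median and highest levels of 0.00, 5.61 and 8.72 at 16 h and 0.00, 9.10 and 11.92 at 36 h, a difference of 4.29. TPS2, the phosphatase of the second step, differed by 3.43 and the regulatory subunit TSL1 by 3.98. Thus the enzymes of both steps and 1 regulatory subunit of the trehalose synthase complex were higher. The phosphoglucomutase PGM2, which makes the glucose 1-phosphate used for glycogen, differed by 4.57, and its paralog PGM1 by -1.20. On the glycogen side, the synthase GSY2 differed by 3.32, the branching enzyme GLC3 by 1.97, the debranching enzyme GDB1 by 1.64 and the phosphorylase GPH1 by 1.91. The trehalases that break the sugar down, NTH1 and NTH2, differed by 1.82 and 1.69, so genes of synthesis and of breakdown were on the same side of 0. The list was 0.66 above the 16-h/F mean in the cells numbered up to 24 and 2.66 above it in the others. In the former TSL1, NTH1, GDB1 and GLC3 differed by 0.93, 0.19, 0.016 and -0.053, while TPS1 (2.38) and PGM2 (2.01) were past 2.

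Over all 36-h/F cells, glycolytic genes split by paralog. The list of 31 genes of glycolysis and fermentation went from 6.44 ± 0.58 to 7.36 ± 0.56, with 9 higher and 0 lower (2.94% of all genes were higher), yet the median over its genes was only 0.29. TDH1, the glyceraldehyde 3-phosphate dehydrogenase known from slow growth, had lowest, median and highest levels of 0.00, 5.72 and 8.80 at 16 h and 6.10, 9.29 and 11.53 at 36 h, a difference of 4.35, and reads in 25 of 26 and all 27 cells. Its paralogs TDH2 and TDH3 differed by -0.47 and 0.19. Hexokinase HXK1 differed by 4.54 and glucokinase GLK1 by 3.12, but HXK2, the hexokinase of growth on glucose, by -0.53. ENO1 differed by 2.43 and ENO2 by -0.79, and both subunits of phosphofructokinase, PFK1 (-1.02) and PFK2 (-0.81), lay below 0. The aldehyde dehydrogenases ALD4 (3.40, mitochondrial) and ALD6 (3.38, cytosolic) were higher, whereas PDC1 (0.30) and ADH1 (-0.043), the main decarboxylase and alcohol dehydrogenase of fermentation, lay near 0. Part of this split did not hold in both sets of cells by number. In the cells numbered up to 24, HXK1, GLK1 and ALD4 differed by 1.19, 1.63 and 1.77 and PFK2 by 0.23. In those numbered above 24 they differed by 6.51, 4.00, 4.36 and -1.43. TDH1 (3.90 and 4.61), ENO1 (2.15 and 2.59) and ALD6 (3.71 and 3.19) were past 2 in both sets. TDH1, TDH2, TDH3, ENO1 and ENO2 share sequence with each other, between 15.7% and 31.3% of their 50-base words, so their reads are partly uncertain. With spike-in scaling the glycolysis list differed by 0.27, and of the genes named here whose difference was above 0 but under 0.5, TDH3, PDC1, TAL1, GPP1, TSA1, HXT4 and COX1 lay below 0 with it. Of the hexose transporters, HXT5, which is made when growth slows, differed by 2.84 and HXT1 by 1.47, with HXT2, HXT3 and HXT4 at -0.025, -0.14 and 0.18.

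The same split ran through the pentose phosphate pathway, which supplies NADPH and ribose. NQM1, a transaldolase, had lowest, median and highest levels of 0.00, 0.00 and 7.81 at 16 h and 0.00, 8.15 and 12.03 at 36 h, a difference of 5.26, whereas its paralog TAL1 differed by 0.48. The transketolase TKL2 differed by 4.67 and TKL1 by -0.045, the lactonase SOL4 by 3.88 and SOL3 by -0.21, and the 6-phosphogluconate dehydrogenase GND2 by 2.23 and GND1 by -0.94. Over all 36-h/F cells 1 gene of each of these 4 pairs was thus higher by more than 2 and the other lay between -1 and 1, but this did not hold within both sets of cells by number. In the 10 cells numbered up to 24, TKL2, SOL4 and GND2 differed by 1.54, 1.08 and 0.32 and SOL3 by 1.07. In the 17 numbered above 24, GND1 differed by -1.63. The higher gene of each pair is also on the general stress list, so this is not independent of it. ZWF1, the enzyme of the first step, which has no paralog, differed by 0.88. PRS5 (-1.22), PRS4 (-1.19) and PRS1 (-1.04), isoforms of the ribose phosphate pyrophosphokinase that draws on this pathway for nucleotides, were at the low end of the list. The whole list of 18 genes differed by 0.75.

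Some genes of glycerol metabolism, for which no list was drawn up, can be set beside these. GPD1, the glycerol 3-phosphate dehydrogenase of the response to osmotic stress, differed by 2.06, the phosphatase GPP2 by 2.96, its paralog GPP1 by 0.38, and DAK1, which phosphorylates dihydroxyacetone, by 3.16. PNC1, the nicotinamidase and a regulator of replicative lifespan, went from 0.00, 6.70 and 9.02 (lowest, median, highest) to 4.50, 9.29 and 11.80, a difference of 2.86, and it was the 1 higher member of the 26 NAD genes. SIR2, the deacetylase that uses NAD and a regulator of replicative lifespan, had reads in only 1 of 26 and 6 of 27 cells and differed by 0.91. Among the other lifespan regulators, SCH9, the kinase through which TOR promotes growth, was lower, with lowest, median and highest levels of 0.00, 4.57 and 8.76 at 16 h and 0.00, 0.00 and 5.63 at 36 h and a difference of -2.14. SOD2, the mitochondrial superoxide dismutase, was at 1.54.

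Chaperones and antioxidant enzymes were both higher, by 1.16 and 1.11. The 37 heat shock proteins and chaperones went from 4.17 ± 0.63 to 5.33 ± 0.85 (9 higher, 0 lower) and the 40 antioxidant enzymes from 3.79 ± 0.54 to 4.90 ± 0.78 (10 higher, 0 lower). HSP104, the disaggregase that recovers aggregated proteins, had lowest, median and highest levels of 0.00, 5.63 and 9.99 at 16 h and 2.51, 8.31 and 11.68 at 36 h, a difference of 2.94. HSP78, its mitochondrial counterpart, differed by 3.14, HSP42, which gathers misfolded proteins, by 2.79, and AHA1 and HSP82, the Hsp90 cochaperone and an Hsp90, by 2.86 and 2.15. The lowest of the list were the ribosome-bound Hsp70 SSB1 (-1.98) and the mitochondrial protease PIM1 (-1.20), with 43.2% of the 50-base words of SSB1 found elsewhere in the genome, its near-identical copy SSB2 being at -0.22. Of the antioxidant enzymes, GRE3, an aldose reductase, differed by 3.05, the peroxiredoxin TSA2 by 2.76 and the glutathione transferase GTT1 by 2.73. The peroxiredoxin TSA1 differed by 0.31, the glutathione reductase GLR1 by -0.22 and the peroxisomal catalase CTA1 by 0.24. In the cells numbered up to 24, HSP42, TSA2 and GRE3 differed by 0.17, 0.78 and 1.18, against 4.33, 3.93 and 4.15 in those above. AHA1 was past 2 in both sets (2.29 and 3.19).

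Mitochondrial genes were higher by less and less evenly. The 40 nuclear genes of the respiratory chain and ATP synthase went from 2.42 ± 0.62 to 3.07 ± 0.98 with 4 higher, against 2.94% of all genes. These were COR1 and QCR9 of complex III (2.48 and 2.04) and STF1 and STF2, which act on the ATP synthase (2.14 and 2.57). In the cells numbered up to 24, COR1 and QCR9 differed by 1.77 and 2.29 and STF1 and STF2 by 0.44 and 0.63. In those numbered above 24 STF1 and STF2 differed by 3.13 and 3.71. INH1, the ATP synthase inhibitor, lay lowest, followed by the catalytic subunit ATP2 (-0.67) and the iron-sulfur protein RIP1 (-0.51). COX17, the copper chaperone of cytochrome oxidase, differed by 2.99. In the tricarboxylic acid cycle, citrate synthase CIT1 (2.91), malate dehydrogenase MDH1 (2.59) and the succinate dehydrogenase subunit SDH1 (2.50) were higher, whereas PYC2, the pyruvate carboxylase, was lower (-2.07). The 69 mitochondrial ribosomal proteins went from 1.84 ± 0.63 to 2.44 ± 0.65, the opposite direction to the cytosolic ones. Of them 1 was higher, against 2.94% of all genes, namely MRP8 (2.50), a gene named for that ribosome whose product has no settled function. Of 8 mitochondrially encoded genes 5 were in the table, and OLI1, an ATP synthase subunit, was the 1 higher (2.16), while COX1, which overlaps annotated genes within its introns, differed by 0.16. The libraries were primed on poly(A), which mitochondrial messages of yeast lack, so these levels need not follow the amount of those messages. The differences of the respiratory chain and of the mitochondrial ribosomal proteins were 0.18 and 0.21 with spike-in scaling.

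The lists of protein degradation held 2 and 3 higher members. Of 33 proteasome subunits, all of which passed the filter, RPN9 (2.29) and RPN11 (2.06) were higher, a share close to the 7.16% of all genes that passed it. RPN11 differed by 0.37 in the cells numbered up to 24. The list differed by 0.52, by 0.037 and 0.80 in the cells numbered up to 24 and above, and by -0.15 with spike-in scaling, which turned its direction. The proteasome element GGTGGCAAA (TTTGCCACC) was in 27 of the 33 promoters, against 1.23% of all promoters and 1.32% of those of higher genes. Of the 43 genes of autophagy and vacuolar proteases measured, 3 were higher, against 2.94% of all genes. They were aminopeptidase APE1 (2.62), proteinase PRB1 (2.34) and the cell surface protease YPS1 (2.22), and ATG27 (-1.33) was the lowest. That list differed by 0.60. Among cell wall genes, SED1, a major wall protein of slow growth, went from 0.00, 8.78 and 11.16 to 7.75, 11.82 and 14.09 (lowest, median, highest), a difference of 3.38. SPI1 and PIR3 differed by 3.43 and 2.49, while the glucan synthase FKS1 was at -1.63. In the cells numbered up to 24, SED1, SPI1 and PIR3 differed by 2.39, 1.05 and 0.37, against 3.97, 4.83 and 3.74 in those above. OLE1, the only fatty acid desaturase of yeast, went from 0.00, 0.00 and 8.42 to 0.00, 6.36 and 9.55, a difference of 3.70. Its mean in 2-h cells was 5.21, so the 16-h/F cells were the low ones. The leucine and lysine enzymes LEU4 (3.00) and LYS21 (2.95) were higher, and so was ARG7 of arginine synthesis (2.23), while the 59 amino acid genes in the table together differed by 0.081, or by 0.52 without the 6 cells in which a read was worth most. The fatty acyl-CoA synthetase FAA1 (2.34) and ADR1, an activator of genes for carbon sources other than glucose (2.15), were the higher members of the 25 genes of fatty acid breakdown and peroxisomes.

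Genes of ribosome synthesis made up most of the lower side. Of the 46 lower genes, 12 encode cytosolic ribosomal proteins and 14 ribosome assembly factors, and with RNA polymerases I and III 28 were on these lists. Of the 2166 genes that passed the filter, 132, 53 and 12 were on these lists, in that order. In the cells numbered up to 24 and above, ribosomal proteins differed by -0.32 and -1.64 and assembly factors by -0.011 and -1.62. Only 2 of the 46 genes were past -2 in both sets. The 137 ribosomal protein genes went from 7.13 ± 0.37 to 5.98 ± 1.30, with 12 lower and 0 higher (0.987% of all genes were lower) and 133 of 137 differences below 0. As a share of reads, which needs no size factor, they took 18.1% in the median 16-h/F cell (7.92 to 25.5%) and 10.6% in the median 36-h/F cell (1.35 to 19.6%). The lowest were RPL18B (-2.63), RPL31B (-2.48) and RPS0A (-2.44), and the highest was RPL15B (1.18). Without the 6 cells in which a read was worth most, the difference of the list was -0.64 in place of -1.15, and the count of lower genes overall was 25.

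The 144 assembly factors went from 2.42 ± 0.82 to 1.40 ± 1.08, with 19 lower and 0 higher, and 13 of the 27 36-h/F cells were below every 16-h/F cell. NOP1 (YDL014W, chromosome IV), the methyltransferase of box C/D particles (fibrillarin), had lowest, median and highest levels of 0.00, 7.06 and 9.14 at 16 h and 0.00, 0.00 and 8.98 at 36 h. Its promoter is printed above. It had reads in 25 of 26 cells (96.2%, exact 95% interval 80.4 to 99.9%) and 11 of 27 (40.7%, 22.4 to 61.2%), a difference of -3.80, the lowest of all. The groups overlapped, since the highest 36-h/F cell came close to the highest 16-h/F cell. MAK21, a factor of the large subunit, went from 0.00, 5.49 and 7.23 to 0.00, 0.00 and 7.39 and differed by -3.12. RRP5, which acts in both subunits, differed by -2.75, the histone chaperone and prolyl isomerase FPR4 by -2.79, the methyltransferase SPB1 by -2.61, the nucleolin homolog NSR1 by -2.59, the C/D particle protein NOP58 by -2.54 and the pseudouridine synthase CBF5 by -2.54. In 6 of these 8 genes the median 36-h/F cell had no read, NOP58 and CBF5 being the others. The count of lower genes was 5 in place of 46 when the mean of normalized counts, which the cells with many reads dominate, replaced the mean of log2 values. PAC was in 131 of the 144 promoters of assembly factors and 15 of the 137 of ribosomal proteins.

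Other genes that feed ribosome and protein synthesis lay on the same side over all 36-h/F cells. Of 31 subunits and regulators of RNA polymerases I and III, RPA190, the largest subunit of polymerase I, differed by -2.17 and RPC40, shared by both enzymes, by -2.36, whereas MAF1, the repressor of polymerase III, lay at 1.36. The list differed by -0.63, or by -0.42 without the 6 cells, and by 0.079 and -1.05 in the cells numbered up to 24 and above. SAM1, an S-adenosylmethionine synthetase, had lowest, median and highest levels of 5.05, 8.63 and 10.11 at 16 h and 0.00, 5.95 and 8.99 at 36 h, a difference of -3.66, and its paralog SAM2 differed by -1.92. In guanine nucleotide synthesis IMD4 and IMD3 differed by -2.71 and -2.06, ADE6 of purine synthesis by -2.30 and URA1, the dihydroorotate dehydrogenase, by -2.54. Of 37 translation factors in the table TIF4631, the scaffold eIF4G, was the 1 lower (-2.56), against 0.987% of all genes, and its paralog TIF4632 was at 1.00. The factors together differed by -0.44, or by -0.046 without the 6 cells. The plasma membrane proton pump PMA1 differed by -1.72. Most of these differences were small in the cells numbered up to 24. There RPC40, RPA190, ADE6, TIF4631 and PMA1 differed by -0.0068, -0.48, -0.47, -0.74 and -0.34. In those numbered above 24 they differed by -3.74, -3.16, -3.37, -3.64 and -2.53. Translation factors differed by 0.12 and -0.77 in these sets, so their sign turned. SAM1 (-2.22) and IMD4 (-2.09) were past -2 in the cells numbered up to 24 too.

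**Figure D2:**
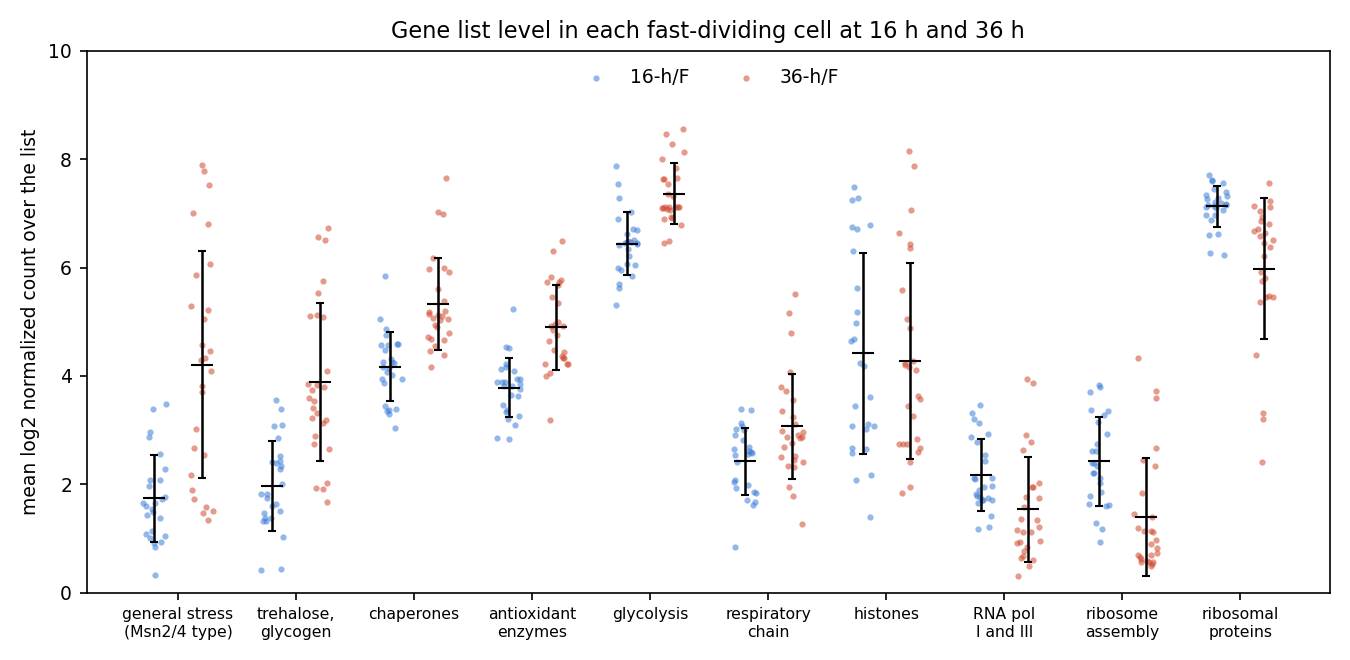
Mean log2 normalized count over each of 10 gene lists (vertical axis) in each 16-h/F cell (blue, 26) and each 36-h/F cell (red, 27), with the mean and SD among cells as bars. The general stress level runs from 1.33 to 7.88 in 36-h/F cells, against at most 3.49 at 16 h, and the ribosomal protein level reaches down to 2.41, against at least 6.24 at 16 h.

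Several lists differed by little, and by less than the SD among cells of both subgroups. That SD does not set them apart from the lists above. RNA polymerases I and III (-0.63) and proteasome subunits (0.52) were also within it in both subgroups. Ribosomal proteins (-1.15, SD 1.30) and assembly factors (-1.02, SD 1.08) were within the SD of the 36-h/F cells. The 11 histone genes went from 4.42 ± 1.85 to 4.28 ± 1.81, the 19 V-ATPase subunits from 4.50 ± 0.60 to 4.45 ± 0.86, the 27 ergosterol genes from 3.21 ± 0.82 to 3.08 ± 0.77 and the 25 genes of the unfolded protein response from 2.89 ± 0.57 to 2.72 ± 0.74, with 0 genes past a difference of 2 in each. With spike-in scaling these lists differed by -0.69, -0.67, -0.57 and -0.58, close to or below the median of all genes under that scaling. Without the 6 cells they differed by 0.046, 0.26, 0.054 and 0.0073. The 38 iron genes were at 1.89 and 1.91, with siderophore transporter ARN1 (2.30) and vacuolar iron importer CCC1 (2.12) higher and the iron permease FTR1 (-2.16) lower. Over all genes 2.94% were higher and 0.987% lower. Of the DNA damage genes, RNR3, a ribonucleotide reductase subunit made on damage, had reads in 0 of 26 16-h/F cells, which allows a share of up to 11.5% when 3 cells are taken as the limit of a count of 0, and in 8 of 27 36-h/F cells (29.6%, exact 95% interval 13.8 to 50.2%). RNR1, the large subunit of the same enzyme in unstressed cells, was at -1.88, and RAD16 of nucleotide excision repair was higher (2.04).

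Markers of mating type and of other cell states were checked beside these results. Of the 4 alpha genes in the table, STE3, the a-factor receptor, had reads in 15 of 26 and 4 of 27 cells and MF(ALPHA)1 in 20 and 14, whereas STE2, the receptor of a cells, had reads in 0 of these 53 cells. STE3 was the 1 alpha gene past the threshold (-2.01). The alpha list went from 2.67 ± 1.64 to 1.58 ± 1.29 and the a list from 0.22 ± 0.47 to 0.42 ± 0.69. Of 5 strain deletion markers 1 was in the table, LYS2, which is deleted in BY4742. It was at 0.23 ± 0.93 in 16-h/F cells and 0.00 in 36-h/F cells. MET17, deleted in BY4741, had no values, and the conflict of the labels was not resolved. The sporulation list was at 0.32 and 0.20. The 15 daughter-specific and cell separation genes, which an attached daughter would add, ranged per cell from 0.090 to 6.62 at 16 h and from 0.24 to 7.11 at 36 h, with means of 2.16 ± 1.74 and 1.61 ± 1.50. The part of these markers in the other results was not tested. Reads of several genes named here may be shared with copies elsewhere, and those values are uncertain. The shares of 50-base words found elsewhere were 36.7% for LYS21, 21.4% for AAD4, 16.6% for IMD3, 14.9% for HXT3, 14.3% for MF(ALPHA)1, 14% for ADH1, 11.8% for RPL15B and 10.8% for PIR3, and under 10% for IMD4, RPL18B, HSP82 and PYC2.

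In most genes the 36-h/F cells differed among themselves more than the 16-h/F cells did. The SD among cells was higher at 36 h for 1715 of the 2166 genes (79.2%), a count not given here without the 6 cells named above. For ribosomal proteins it was 1.30 against 0.37, or 0.63 without the 6 cells. General stress had 2.09 against 0.80, or 1.99 without them. Some lists had no larger SD at 36 h, among them glycolysis (0.56 against 0.58), histones (1.81 against 1.85) and iron genes (0.59 against 0.73). Growth and stress lists varied together from cell to cell. Across the 27 36-h/F cells the general stress level had a Spearman rho of -0.72 with ribosomal proteins, -0.82 with assembly factors, 0.94 with trehalose and glycogen, 0.87 with chaperones and 0.80 with antioxidant enzymes, lists of which some share genes with it. Pearson's r for the first 2 was -0.66 and -0.71. All these points share the scaling of their library, and with every cell scaled to the same sum rho was -0.69 and -0.85. Over the 21 cells left without the 6 it was -0.78 and -0.79, and over the 26 16-h/F cells -0.32 and -0.17. Histones (-0.29) and mitochondrial ribosomal proteins (0.064) followed this line less. The generation of a 36-h/F cell, between 18 and 22, had a rho of 0.30 with the stress level and -0.27 with ribosomal proteins, and its reads had -0.11 and 0.54, which were 0.071 and 0.17 over the 21 cells.

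**Figure D3:**
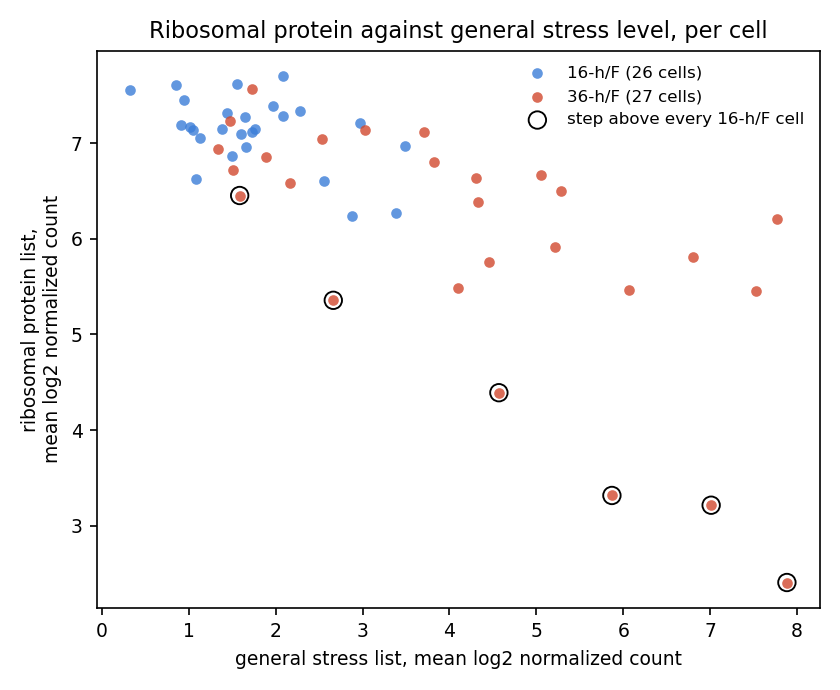
Level of ribosomal proteins (vertical) against that of general stress genes (horizontal), both as the mean log2 normalized count over the list, in 26 16-h/F cells (blue) and 27 36-h/F cells (red). Circles mark the 6 36-h/F cells in which a read was worth more than in every 16-h/F cell. The 16-h/F cells sit together at a stress level of 3.49 or less and the 36-h/F cells spread from there down to a ribosomal protein level of 2.41.

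The number in a cell's name went with the same levels. In the 10 36-h/F cells numbered up to 24 (mean generation 19.2) the general stress list was 2.40 ± 1.22, and in the 17 numbered above 24 (mean generation 20) it was 5.28 ± 1.73, which is 0.66 and 3.54 above the mean of all 16-h/F cells. Chaperones were 0.57 and 1.50 above it, antioxidant enzymes 0.63 and 1.40, the respiratory chain 0.16 and 0.93 and glycolysis 0.75 and 1.03. Ribosomal proteins were -0.32 and -1.64 from the 16-h/F mean, and assembly factors -0.011 and -1.62. Reads were similar, 304179 and 313338 per cell on average. Both sets were compared with the same 16-h/F cells. Of the 155 higher genes 42 were past 2 in both sets, 106 only in the cells numbered above 24 and 7 only in those numbered up to 24. Of the 46 lower genes 2 were past 2 in both sets, 43 only in the cells numbered above 24 and 1 only in those numbered up to 24. In the 18 36-h/S cells, the slow-dividing cells of that age, rho of the number with the stress list was 0.78, in the 37 2-h cells 0.020.

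Genes behaved unalike in this split, which was chosen, like the genes named for it, after the values were seen. NOP1 differed by 0.033 in the cells numbered up to 24 and by -6.06 in the others, RRP5 by 0.75 and -4.82, HBT1 by 0.29 and 6.07 and HSP12 by 0.12 and 4.44. By contrast TDH1 differed by 3.90 and 4.61, OLE1 by 3.36 and 3.91, the aryl-alcohol dehydrogenase homolog AAD4 by 5.11 and 3.50, ALD6 by 3.71 and 3.19, the prohibitin PHB2 by 2.93 and 2.99 and GPP2 by 2.59 and 3.18. STL1 (3.33 and 6.02) and HSP26 (2.96 and 5.55) were past 2 in both. SAM1 (-2.22 and -4.50) and IMD4 (-2.09 and -3.07) were the lower genes past -2 in both.

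**Figure D4:**
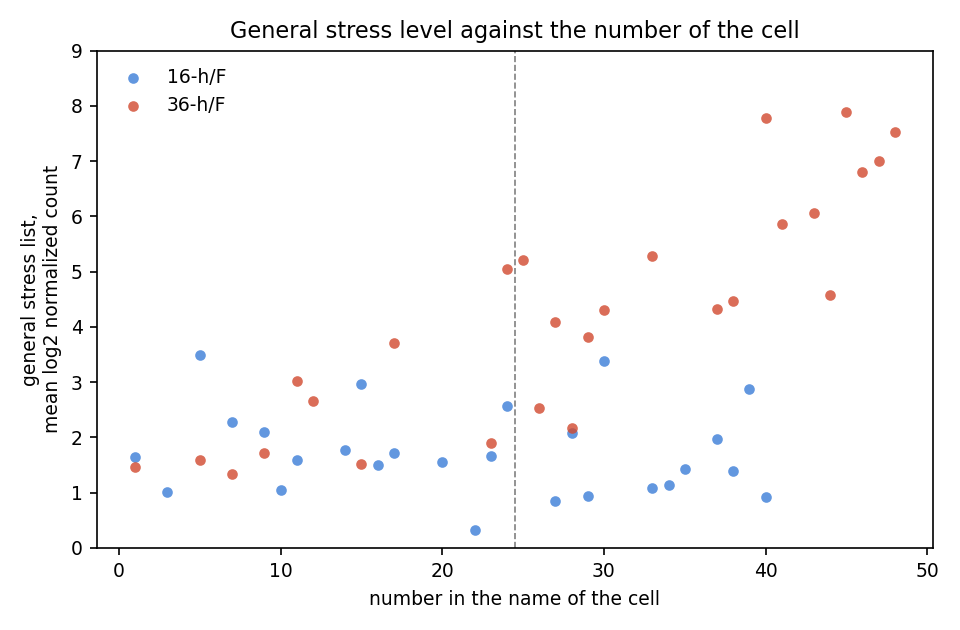
Mean log2 normalized count of the 44 general stress genes (vertical) against the number in the name of each cell (horizontal) for 16-h/F (blue, 26) and 36-h/F cells (red, 27). The dashed line parts numbers up to 24 from those above. The red points lie between 1.33 and 5.05 on the left and between 2.17 and 7.88 on the right, and the blue points show no such slope.

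Slow-dividing cells of the same ages (17 16-h/S and 18 36-h/S cells) are other cells and none of them entered the comparison above. Their libraries held fewer reads, with medians of 199571 at 16 h and 186022 at 36 h. In the median cell a read was worth 0.84 normalized counts in 16-h/S and 1.90 in 36-h/S. In 16-h/F and 36-h/F it was worth 0.67 and 0.84. The part of depth in the slow-dividing values was not tested. Their lists mostly lay on the same side of 0. The general stress list differed by 2.27 in them (36-h/S minus 16-h/S) and 2.47 in the fast-dividing cells, ribosomal proteins by -1.07 and -1.15, trehalose and glycogen by 1.30 and 1.92, chaperones by 0.62 and 1.16, and assembly factors by -0.58 and -1.02. Of the 155 higher genes 138 and of the 46 lower genes 42 had a difference of the same sign there, with medians of 1.79 and -1.47. The median there over the 2166 genes that passed the filter was 0.065. The share of all genes with the same sign in both lineages is not given here. The difference between the lineages was not tested, since each subgroup is 1 sample. Single genes had unlike values in the 2 lineages. Those given here were picked for their unlike values, so they do not show how common such a contrast is. HSP104 differed by -0.30 in slow-dividing and 2.94 in fast-dividing cells, COX17 by -0.094 and 2.99, SDH1 by -0.022 and 2.50, RPN11 by -0.18 and 2.06, and SOL4 by 0.77 and 3.88. On the lower side SPB1 differed by 0.46 and -2.61, FPR4 by -0.16 and -2.79, SPA2, a protein of polarized growth, by 0.15 and -2.25, and PYC2 by 2.43 and -2.07. By cell number, up to 24 and above, the fast-dividing differences were 1.29 and 3.91 for HSP104 and 1.67 and 3.76 for COX17. They were 0.37 and 3.05 for RPN11, 1.08 and 5.53 for SOL4 and -1.24 and -3.70 for FPR4. For SPB1 they were -1.74 and -3.12, for SPA2 -1.64 and -2.61 and for PYC2 -2.48 and -1.82. Slow-dividing cells were not split by number, and the part of the number in these contrasts was not tested. In HSP104 the age group means were 4.68 and 4.38 in slow-dividing and 5.13 and 8.07 in fast-dividing cells, so the 36-h/F cells were above the other 3 subgroups.

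**Figure D5:**
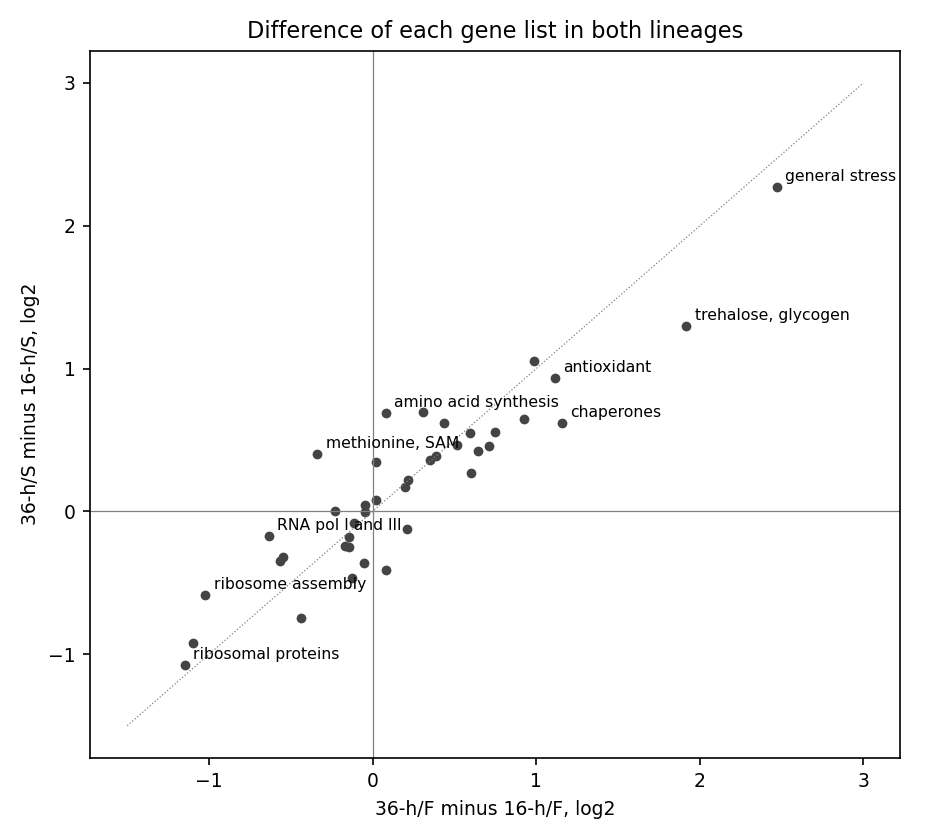
Difference of each of the 40 gene lists between 36 h and 16 h in fast-dividing cells (horizontal) and slow-dividing cells (vertical), both in log2 of normalized counts, with the dotted line at equal differences. General stress lies at 2.47 and 2.27 and ribosomal proteins at -1.15 and -1.07, while methionine and S-adenosylmethionine genes lie at -0.34 and 0.40, the former being -0.10 without the 6 cells in which a read was worth most.

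The 37 2-h cells, which are not split by lineage, set these values in the order of age. Of the 155 higher genes 122 had a lower mean at 2 h than in 16-h/F cells, and of the 46 lower genes 34 had a higher one. The same shares over all genes are not given here. Over these 3 ages the ribosomal protein list was at 7.47 ± 0.20 (SD, 37 cells), 7.13 ± 0.37 and 5.98 ± 1.30. Assembly factors were at 3.27 ± 0.65, 2.42 ± 0.82 and 1.40 ± 1.08, and trehalose and glycogen genes at 0.91 ± 0.47, 1.97 ± 0.82 and 3.89 ± 1.45. TPS2 was higher at each later age in its means, 0.97, 5.17 and 8.60, and GPD1 likewise at 1.95, 6.04 and 8.10. STL1 and HSP26, by contrast, were at 0.00 and 0.74 at 2 h and 0.25 and 0.80 in 16-h/F cells, so nearly all of their difference lay between 16 h and 36 h. NOP1 was at 6.71, 6.56 and 2.76, and SAM1, at 6.95, 8.45 and 4.79, was highest in the 16-h/F cells.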

How the data were processed

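Single mother cells were isolated at 2, 16 and 36 h and sequenced with Smart-seq2, with ERCC spike-in RNA added at lysis. The authors used HISAT2 2.1.0 against the R64 genome, SAMtools 1.1, featureCounts for reads per gene and DESeq2 for size factors. The values they deposited are the log2 of these normalized counts plus 1. The strand setting of the counting is not given in the sources used here. The deposited table held 5997 genes, of which 5693 matched R64. F and S subgroups and generations were taken from the supplement of the study, split at the mean generation of each age group.

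Undoing the log2 gave whole reads in every cell (largest deviation 8.42e-05 of a read). A count test was not used because each subgroup is 1 sample. A gene's difference is the mean log2 value over the 36-h/F cells minus that over the 16-h/F cells. Genes with an average of both means of at least 2 were counted from a difference of 2, and members of lists were counted without this filter. A list's level in a cell is the mean over its genes in the table. Shares of cells have exact Clopper-Pearson 95% intervals, except for a count of 0, whose limit was set at 3 cells and is no such interval. Named were the 10 genes at each end, all members of lists of up to 15 genes and the 4 at each end of longer lists, and further genes, mainly paralogs and other list members, were named after their values were seen. Members and lists were chosen with earlier results of these data known. Alternatives were other scalings, thinning to 40000 reads, other pseudocounts, filters, thresholds and sets of cells. Scripts were tested on simulated data. Python 3.11.15, NumPy 2.4.6, pandas 2.3.3 and SciPy 1.17.1 were used.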

Additional observations from a re-analysis of the deposited data

Results flagged for a closer look

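PYC2, 1 of the genes for pyruvate carboxylase, differed by -2.07 between 36-h/F and 16-h/F cells and by 2.43 between 36-h/S and 16-h/S cells, so the lineages went in opposite directions. Its means were 5.52 and 3.45 in fast-dividing and 1.91 and 4.34 in slow-dividing cells, with SDs among cells of 2.46, 3.29, 2.98 and 4.03. The difference between the lineages was not tested, and 8.44% of its 50-base words occur elsewhere in the genome.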

How the results depend on the processing

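The 155 higher genes became 91 with spike-in scaling, 46 with a pseudocount of 10, 517 from a difference of 1 and 254 with only the cells numbered above 24. The 46 lower genes became 116 with an equal sum, 188 with spike-in scaling, 113 thinned to 40000 reads, 89 without generations 9 and 18, 2 with a pseudocount of 10, 5 with ratios of mean counts, 324 from a difference of -1, 25 without the 6 cells, 11 with only the cells numbered up to 24 and 121 with only those above. The median difference was -0.068, -0.33 and -0.080 with equal sums, spike-in scaling and thinning. Leaving out 1 cell gave 145 to 174 higher and 35 to 60 lower genes and a median of 0.16 to 0.26. Glycolysis differed by 0.27 and proteasome subunits by -0.15 with spike-in scaling. Ratios of mean counts gave 0.36 for cell separation genes and 0.12 for nucleotide synthesis, for which medians over genes gave -1.51. The cells numbered up to 24 alone gave 0.029 for nucleotide synthesis and 0.079 for RNA polymerases I and III. In them NOP1, RRP5, CBF5 and NOP58 had differences of 0.033, 0.75, 0.47 and 0.33, against values below -2.5 as reported. The causes were not tested. The sets of cells by number and without the 6 cells were chosen after seeing the data. The general stress list kept differences of 1.54 to 3.69 under the alternatives other than these sets and leaving out 1 cell, and ribosomal proteins -1.86 to -0.64. No paired analysis was possible because each cell is its own library and no label pairs them. Depth limits low genes, which were at 0 in many cells.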
